A study of Mus musculus with 6 samples.

Results

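Il1b-high inflammatory macrophages of mouse skin were taken as single cells with high counts of the interleukin 1 beta transcript and of the chemokines CCL3 and CCL4. A member had at least 5 UMIs (unique molecular identifiers, each counting 1 captured transcript) of Il1b, at least 5 of Ccl3 and Ccl4 together, at least 1 of the myeloid lysozyme gene Lyz2 and fewer than 2 of Arg1. It had 0 UMIs of Cd207, which marks Langerhans cells, of Csf3r, which marks neutrophils, and of Cd3d, Cd3e and Cd3g, which mark T cells. The rule selected 87 of 34834 kept cells. A cell was kept with 500 or more UMIs, 300 or more detected genes and a mitochondrial share of UMIs no higher than 10%. The rule reads measured counts, so the high levels of Il1b, Ccl3 and Ccl4 and the absence of the excluded genes describe how the cells were picked and were not tested.

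The cells came from whole dorsal skin of wildtype male C57BL/6 mice aged 8, 26 or 52 weeks, in a series on age and skin macrophages. At each age, skin was either dissociated directly after collection (untreated) or first exposed ex vivo to what γ-irradiated peripheral blood mononuclear cells secrete, a preparation called PBMC-sec. Each of the 6 conditions is 1 library made from 3 pooled animals. The labels give no dose, no duration and no statement on whether treated and untreated skin of an age came from the same animals. Only treated skin had an ex vivo step, so effects of the secretome and of that step cannot be told apart. Where 6 values are listed, they run from 8 over 26 to 52 weeks, and at each age the untreated library comes before the PBMC-sec library.

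Interleukin 1 beta is made as an inactive precursor after Toll-like receptor or TNF receptor signals reach the transcription factor NF-κB, and inflammasomes built around NLRP3 activate caspase 1, which cuts it into the secreted cytokine. CCL3 and CCL4 recruit monocytes and T cells, CXCL1, CXCL2 and CXCL3 recruit neutrophils through CXCR2, and TNF acts on neighbouring cells through TNFR1 and TNFR2. In skin, macrophages of this state are known from wounds and irritated tissue, whereas resident dermal macrophages carry complement C1q, Pf4 and scavenger receptors and clear debris.

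The libraries held 19956655 to 40211991 UMIs, and the kept cells had median counts of 1128, 2613, 2211, 3493.5, 3064 and 4804 UMIs. Treated libraries were deeper per cell at every age. In the 8-week untreated library, 3835 of 9237 kept barcodes had near-identical profiles, against 49 in the 52-week untreated library and 0 in the others, and none of these barcodes was a member. Pairs of libraries shared 21 to 78 barcodes, and 4 member barcodes also occurred in another library, none of them as a member there. Scrublet's automatic threshold called 0 doublets in every library, and 5 members were among the barcodes with the highest scores.

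Members numbered 4, 24, 2, 15, 16 and 26, with 20188, 48751, 10459, 60895, 62130 and 106820 UMIs in all. Their median counts were 5043.5, 1657.5, 5229.5, 2792, 2121 and 3734 UMIs per cell. The untreated libraries of 8 and 26 weeks thus rest on 4 and 2 cells, and every level given for them is that of very few cells. Of 762 cells with at least 5 Il1b UMIs, 510 also passed the chemokine condition, 194 of these had Lyz2, and 94 of those were below the Arg1 limit. The Csf3r condition then removed 6 cells and the T cell condition 1. A further 191 cells (12, 16, 17, 19, 71 and 56) met every condition except that Lyz2 was at 0, and 38 of the 87 members had exactly 1 Lyz2 UMI. At the other edges, 10 members had 5 or 6 Il1b UMIs while 17 cells with 3 or 4 were left out, and 33 cells were left out for 2 or 3 Arg1 UMIs.

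Markers of mononuclear phagocytes were present in the members. Of 14 such genes all were detected. Lyz2 is among them and was required by the gate, and 75 of 87 members had UMIs of at least 3 of the 13 others. Tyrobp and Fcer1g, the signalling adaptors of activating Fc and lectin receptors, were seen in 70 and 71 members, whereas a UMI of Tyrobp occurred in 1.08 to 3.14% of keratinocyte-gated cells. The other 12 members carried UMIs of fewer than 3 of these markers.

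Markers of other cell types were uneven across libraries. Of 14 neutrophil markers 9 were detected, and their summed level was 99.1, 390, 95.6, 493, 3428 and 412 CPM (a gene's UMIs relative to all UMIs of the library's summed members, on the usual CPM scale). The 52-week untreated library stood apart here, with 100 S100a8 and 89 S100a9 UMIs, of which 134 lay in 1 of its 16 members. Without the member of most neutrophil UMIs the level of that library was 1229 CPM. Cxcr2, Ly6g, Ngp and Camp of the same list were at 0 in all members, and Csf3r was at 0 by the gate. A UMI of Mmp8 or Retnlg was found in 14 members. Keratinocyte markers summed to 2130, 10300, 669, 11280, 16030 and 992 CPM. In the 52-week untreated library 898 of the 996 keratinocyte UMIs lay in 1 member, and 7 members had at least 10 UMIs of Krt5 and Krt14. Of 12 dendritic cell markers 9 were detected, most often Fscn1, in 5 members, while Xcr1, Clec9a and Ccl17 were at 0. The dendritic cell list summed to 49.5, 185, 0, 229.9, 80.5 and 37.4 CPM. Of 7 Langerhans cell markers 5 were detected, summing to 2477, 4000, 1721, 4730, 853 and 3089 CPM. That list includes Cd74 and H2-Aa, described below, and its Cd207 was at 0 by the gate. B cell, plasma cell, melanocyte and Schwann cell markers were at 0.

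**Figure D1:**
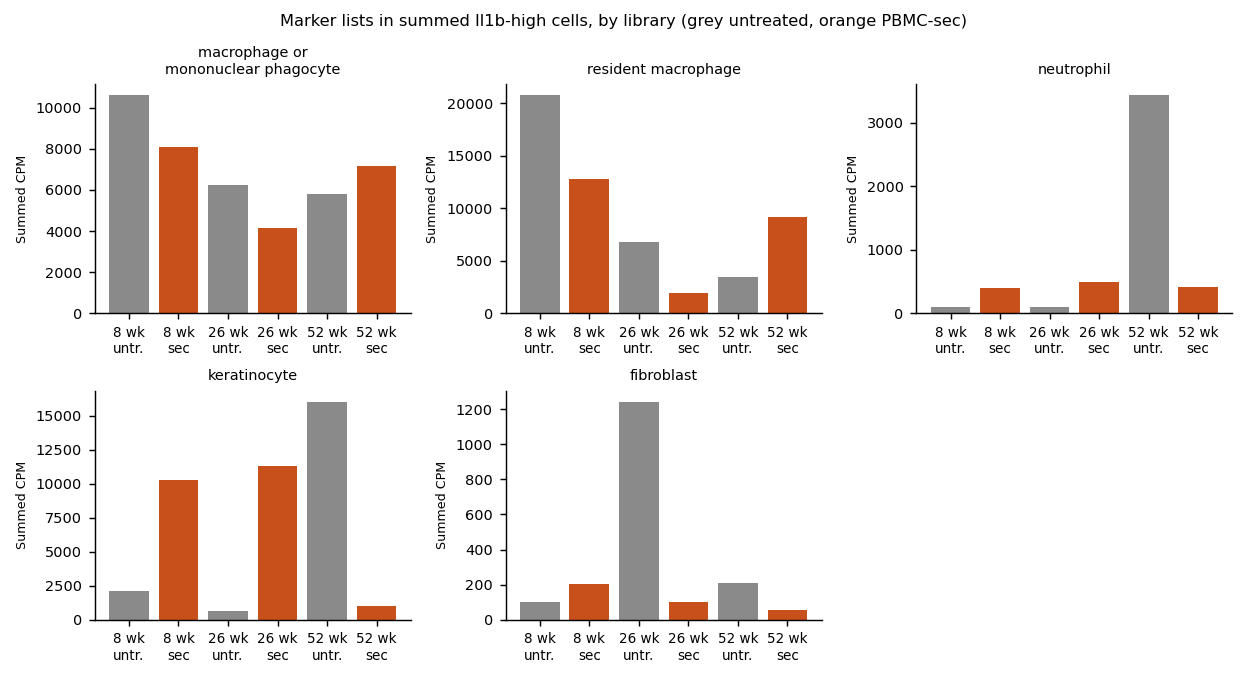
Summed CPM of 5 marker lists in the summed Il1b-high cells of each library, with untreated libraries in grey and PBMC-sec libraries (sec) in orange. Phagocyte markers were present in all 6 libraries. Resident macrophage markers were highest in the 8-week untreated library, where 278 of 419 UMIs lay in 1 of 4 members. Without the highest member of each library, that library had 10200 CPM, against 10650 CPM in the 8-week PBMC-sec library. Neutrophil markers were highest in the 52-week untreated library at 3428 CPM, most of it from 1 cell. The phagocyte list includes Lyz2, which the gate required.

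The members were rare in every library and rarest in untreated skin of 8 and 26 weeks. They made up 0.0433%, 0.440%, 0.03585%, 0.253%, 0.434% and 0.525% of the kept cells. The exact Clopper-Pearson 95% intervals were 0.0118 to 0.111%, 0.282 to 0.653%, 0.00434 to 0.129%, 0.142 to 0.417%, 0.248 to 0.704% and 0.344 to 0.769%, and they cover counting error only. The intervals of treated and untreated skin did not overlap at 8 and 26 weeks, and they overlapped at 52 weeks.

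PBMC-sec libraries had 10.2-fold, 7.06-fold and 1.21-fold the untreated share at 8, 26 and 52 weeks. Without the near-identical barcodes the 8-week value was 5.94-fold. The mean log2 ratio over the 3 ages was 2.15 ± 1.64 (SD, n = 3), higher in 3 of 3 ages, and the exact two-sided sign-flip permutation test gave p = 0.25, the smallest value that 3 ages allow. Between ages, the share at 52 weeks was 10.0-fold that at 8 weeks in untreated skin (5.94-fold without the near-identical barcodes) and 1.20-fold in treated skin, with 1 library on each side and no test.

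The condition on Lyz2 changed the 52-week direction. Without it, 191 more cells were selected, and the shares were 0.173%, 0.733%, 0.341%, 0.574%, 2.36% and 1.66%. Exact 95% intervals of treated and untreated skin did not overlap at 8 weeks under this gate, and they overlapped at 26 and 52 weeks. The log2 ratios of treated over untreated skin were then 2.08, 0.75 and -0.51, with a mean of 0.77 and an exact sign-flip permutation p of 0.5. Untreated 52-week skin had the highest share of all 6 libraries under this gate. Lyz2-positive phagocytes were cells with Lyz2 and at least 2 UMIs of Tyrobp and Fcer1g together, without Cd207, Csf3r or the T cell genes. These phagocytes numbered 18, 41, 7, 28, 119 and 124 cells. The 70 members among them made up shares of 22.2%, 46.3%, 28.6%, 39.3%, 10.1% and 17.7%. The mean log2 ratio of treated over untreated skin was 0.78, and the exact 95% intervals of these shares overlapped at every age. Cells thinned to 1000 UMIs, with gate floors of 2 UMIs, gave 5, 18, 0, 10, 16 and 38 members. Without the Lyz2 condition, thinned log2 ratios were 1.02, 0.63 and -0.60.

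**Figure D2:**
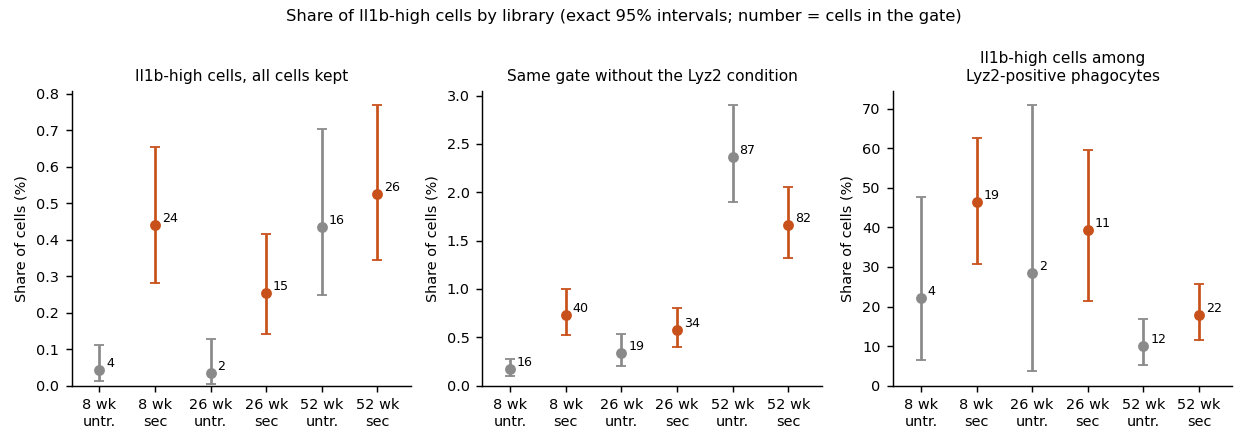
Share of cells in percent for each library, with exact 95% intervals and the number of gated cells beside each point, for the Il1b-high gate among all kept cells (left), the gate without its Lyz2 condition (middle) and the Il1b-high cells among Lyz2-positive phagocytes (right). Treated skin lies above untreated skin at 8 and 26 weeks in all 3 panels, and below it at 52 weeks in the middle panel. In the right panel the intervals of treated and untreated skin overlap at every age.

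The genes that define the cells varied widely among members. Il1b (chromosome 2, 129364570 to 129371139, minus strand; all positions are whole protein-coding genes on GRCm38 from GENCODE vM21) had 5 to 96 UMIs per member with a median of 17. Its summed level was 6192, 9108, 9466, 5518, 4104 and 6740 CPM, so the highest library had 2.31 times the lowest. Cells of the same gate with Lyz2 at 0 had 5845 to 9187 CPM, which covers most of that range. Ccl3 (chromosome 11, 83647844 to 83649355, minus strand) and Ccl4 (chromosome 11, 83662584 to 83664683, plus strand) had 6 to 724 UMIs together, with a median of 44.

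Ccl4 stood at 19760, 20780, 32700, 9278, 19510 and 25360 CPM and Ccl3 at 4805, 7097, 7936, 3646, 10140 and 7096 CPM. The 26-week PBMC-sec members were lowest in both. Lyz2 (chromosome 10, 117277331 to 117282321, minus strand) had 1387, 2728, 287, 821, 1432 and 917 CPM with a median of 2 UMIs per member, and treated and untreated libraries overlapped.

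Tnf (chromosome 17, 35199381 to 35202007, minus strand) is a marker of the state that the gate did not read. It was detected in 70 of 87 members (80.5%, exact 95% interval 70.6 to 88.2%), against 3.68 to 18.5% of keratinocyte-gated cells, whose median depths ran from 1244 to 7254.5 UMIs. Its levels were 1536, 3918, 8509, 1281, 1481 and 4905 CPM. The highest and the lowest value both belong to 26 weeks, and the highest comes from 2 cells. In edgeR's quasi-likelihood test across treatments, Tnf differed by a log2 value of 0.41 and did not pass.

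**Figure D3:**
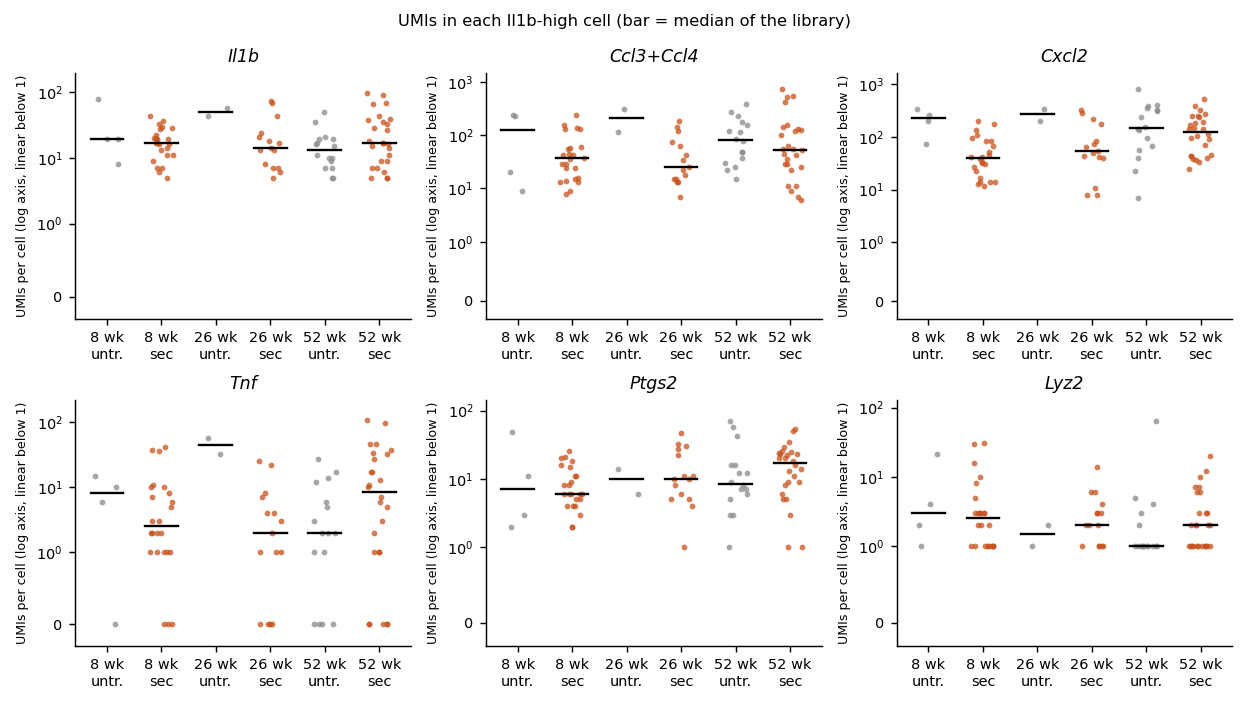
UMIs of 6 transcripts in each of the 87 Il1b-high cells, by library, on a log axis that is linear below 1; each point is a cell, the bar is the library's median, grey marks untreated and orange PBMC-sec skin. Il1b starts at the gate floor of 5, Tnf reaches 110 UMIs with 17 cells at 0, and Lyz2 sits at 1 UMI in 38 cells.

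Chemokines for neutrophils accompanied the gated transcripts in almost every member. Cxcl2 was present in 87 of 87 members with a median of 82 UMIs, and its levels were 43290, 28510, 52010, 24320, 56830 and 37330 CPM. Untreated members were above treated members of the same age each time. Cxcl2 was also found in 10.6 to 29.1% of keratinocyte-gated and 20.1 to 69.8% of fibroblast-gated cells, so it is not a transcript of these macrophages alone. Cxcl3 was seen in 84 members at 5845, 11430, 31170, 6864, 10670 and 12560 CPM, and Cxcl1 in 67 members at 3026 to 13100 CPM. The 26-week untreated members were highest in both.

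Chemokines for monocytes were less even. Ccl2, the CCR2 ligand that draws monocytes out of blood, was detected in 62 members at 15450, 4595, 3442, 3169, 1964 and 9539 CPM. Ccl7, another CCR2 ligand, was detected in 55 members at 1706 to 13320 CPM. The 8-week untreated members were highest in both. Ccl5, a chemokine for T cells and monocytes, ran from 99.1 CPM in 8-week untreated to 5935 CPM in 52-week PBMC-sec members and was found in 43 members. Of the 19 chemokines listed, 17 were detected and 12 could be tested.

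Other cytokines of the same response were present in fewer members. Il1a, which signals through the same receptor as IL-1β, was found in 61 members at 396, 1026, 2103, 657, 1127 and 1151 CPM. Il6 was found in 26 members at 99.1, 308, 95.6, 82.1, 386 and 992 CPM, and both 52-week libraries exceeded the other 4. Il10, an anti-inflammatory cytokine, was found in 25 members and had 0 UMIs in the 2 cells of 26-week untreated skin. Csf3, which encodes the neutrophil growth factor G-CSF, was found in 37 members.

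Genes of NF-κB signalling were expressed together with their own inhibitors. Nfkbia, the inhibitor that NF-κB induces, was detected in 85 members at 5994, 3569, 3538, 1314, 4136 and 3333 CPM. Ptgs2, which encodes the inducible cyclooxygenase of prostaglandin synthesis, was detected in 87 members at 3170, 4554, 1912, 3761, 4442 and 4391 CPM. It was also present in 29.6 to 68.2% of keratinocyte-gated cells. Sod2 (885 to 1494 CPM) and Tnfaip2 (708 to 1966 CPM) were the next in mean level on the NF-κB list, of which all 26 genes were detected.

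Sensors upstream of that response were also present. Clec4e, the mycobacterial and dead-cell sensor Mincle, had 1139, 1190, 1147, 1314, 1272 and 1245 CPM in 72 members, a spread of 1.15-fold between the highest and the lowest library. Cd14, the Toll-like receptor co-receptor, had 640 to 1238 CPM in 70 members. Nlrp3, the inflammasome sensor, was detected in 47 members at 131 to 446 CPM, and Il1rn, the secreted antagonist of the IL-1 receptor, in 69 members at 1337, 1292, 382, 575, 1336 and 2574 CPM. Zfp36, which promotes decay of Tnf mRNA, had 739 to 2486 CPM, and Ier3, an early response gene induced by NF-κB, 1530 to 4458 CPM.

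Members were set beside 3 other gates of the same libraries, as a description, since every gate picked cells on expression. The C1q-high gate took Lyz2-positive cells with at least 5 C1q UMIs and fewer than 5 of Il1b (3, 2, 5, 2, 13 and 11 cells). The Arg1 gate took Lyz2-positive cells with at least 2 Arg1 UMIs, whatever their Il1b count (4, 14, 1, 12, 68 and 77 cells). The neutrophil gate found 15 and 5 cells, in the 52-week libraries alone.

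Tnf, Cxcl2, Cxcl3, Ptgs2, Il1a, Cd14 and Clec4e were higher in members than in C1q-high cells in 6 of 6 libraries. Median Clec4e over the libraries was 1217 CPM in members and 91.8 CPM in C1q-high cells, and median Ptgs2 was 4076 against 126 CPM. Lysosomal proteases lay the other way. Ctsb (cathepsin B) had medians of 1278 against 5948 CPM, Ctsd (cathepsin D) of 976 against 3596 CPM and Ctsl (cathepsin L) of 1466 against 7040 CPM, and in each the members were above C1q-high cells in 1 of 6 libraries. That library was the 8-week untreated one, where 3 of the 4 members had at least 5 C1q UMIs themselves.

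Against Arg1-gated cells the differences were smaller. Tnf was higher in members in 4 of 6 libraries, Cxcl2, Ptgs2 and Clec4e in 3, and Cd14 in 1. Ctsl was lower in members in 6 of 6 libraries, with a median of 3830 CPM in Arg1-gated cells. Cells of the same gate with Lyz2 at 0 had less of the macrophage genes Lgals3, Ctsb, Ctsd and Gpnmb than members in 6 of 6 libraries, with a median of 372.5 CPM for Ctsd. Ccl3 was higher in those cells in 6 of 6 libraries.

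**Figure D4:**
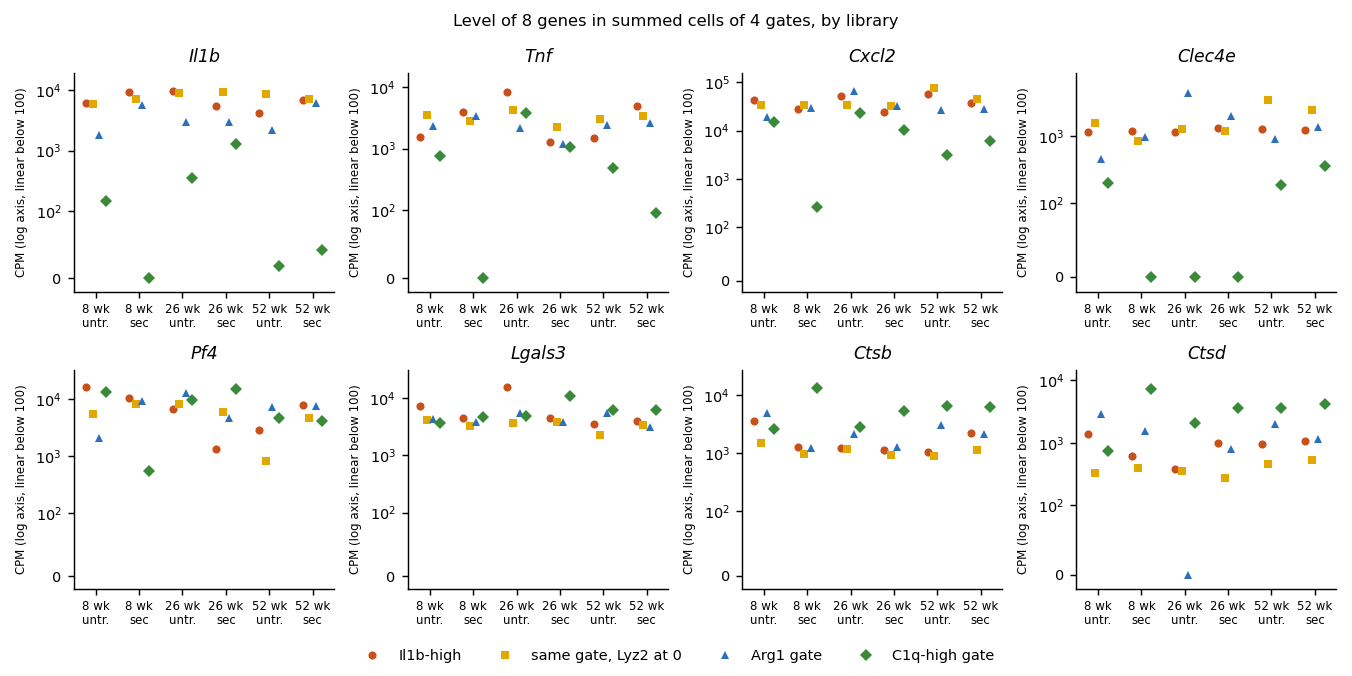
CPM of 8 genes in the summed cells of the Il1b-high gate, the same gate with Lyz2 at 0, the Arg1 gate and the C1q-high gate, by library, on a log axis that is linear below 100. C1q-high cells lie lowest for Clec4e and Cxcl2 in every library and highest for Ctsb in 5 of 6 libraries.

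The members differed among themselves in genes of the resident macrophage program. C1q transcripts were absent from 49 members and reached at least 5 UMIs in 11 (3, 4, 0, 0, 1 and 3 cells). Pf4, a chemokine of resident and perivascular macrophages, was found in 64 members with 0 to 206 UMIs each, and its levels were 15850, 10400, 6597, 1330, 2784 and 7845 CPM. Median Pf4 over the libraries was 7221 CPM in members, 6941 CPM in C1q-high cells and 7316 CPM in Arg1-gated cells. Members were above C1q-high cells in 3 libraries. Of 13 genes of the monocyte list 12 were detected, summing to 1436 to 7303 CPM. S100a6, Thbs1 and S100a4, which many other cells also express, were found in 80, 61 and 58 members, a UMI of Ly6c2 or Plac8 in 9, and Chil3 was at 0. S100a8 or S100a9 was found in 28 members (0, 5, 1, 4, 13 and 5 cells), of which 6 had at least 5 UMIs.

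For treatment, UMIs were summed over the members of each library and fitted with age and treatment as factors, the 3 ages serving as the only replication. With pooled animals and 1 library per condition, the p-values measure how the treatment difference varied between ages, not the spread between animals. Of 953 genes tested, 1 passed (0.105%) in edgeR's quasi-likelihood test with Benjamini-Hochberg adjustment, and 33 reached an unadjusted p below 0.05 (3.46%). With DESeq2, 2 genes passed (0.21%), the same gene and Cxcl5.

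The gene that rose was Fxyd2, which encodes the gamma subunit that tunes the sodium-potassium pump (chromosome 9, 45399669 to 45410278, plus strand). The members held 1, 128, 0, 82, 0 and 99 Fxyd2 UMIs, or 49.5, 2626, 0, 1347, 0 and 927 CPM. A UMI was found in 1 of 4, 22 of 24, 0 of 2, 13 of 15, 0 of 16 and 18 of 26 members. Every treated library was above every untreated one. The ratio of treated to untreated level was 53.0 at 8 weeks (exact 95% interval for counting error 9.35 to 2110). With the untreated libraries of 26 and 52 weeks at 0, which allows up to 3 UMIs in each, the level was at least 4.70-fold higher at 26 and at least 19.2-fold higher at 52 weeks (edgeR adjusted p = 0.0455).

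Fxyd2 fell outside the rule for named genes, because other cells exceeded members with 0 UMIs, and it was singled out after its values were seen. The call was lost without either the 14 members that carried Mmp8 or Retnlg (edgeR adjusted p = 0.0841) or the 2 members with at least 2 mast cell UMIs (0.0755), and when the libraries of any age were left out (0.180 to 0.998). It was also lost with gate floors of 3 UMIs (edgeR adjusted p = 0.188), without the highest Scrublet scores (0.1245) and without the Lyz2 condition (0.379). In all 16 alternatives Fxyd2 was higher after PBMC-sec, with log2 changes of 5.88 to 8.91 against 6.79. It was kept without the 7 keratin-bearing members (edgeR adjusted p = 0.00755).

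Fxyd2 was also found in cells outside the gate. In the same gate with Lyz2 at 0, it was found in 1 of 12, 9 of 16, 1 of 17, 11 of 19, 0 of 71 and 15 of 56 cells. Arg1-gated cells had it in 0 of 4, 12 of 14, 0 of 1, 11 of 12, 4 of 68 and 42 of 77. Neutrophil-gated cells had it in 0 of 15 and 0 of 5. Shares were 0.0399 to 2.45% in keratinocyte-gated and 0.629 to 14.0% in fibroblast-gated cells, and treated exceeded untreated libraries at each age in both. Whether free transcripts from other cells contributed to the member counts was not tested.

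Some genes that did not pass had treated and untreated libraries that did not overlap. How many of all 953 tested genes separated in this way was not counted, so such a separation is a description only, here and for other genes. H1f0, which encodes a linker histone found mainly in cells that have stopped dividing, had 0, 30, 0, 24, 1 and 43 UMIs (edgeR adjusted p = 0.124). Akr1b3, the aldose reductase that makes sorbitol, had 3, 29, 0, 26, 0 and 118 UMIs (edgeR adjusted p = 0.461). Cxcl5, another CXCR2 ligand, had 0, 62, 1, 46, 11 and 204 UMIs (edgeR adjusted p = 0.207). These 3 were also named after their values were seen. The shift of Fxyd2, Akr1b3 and H1f0 was known from earlier results of these libraries and is no independent support. Fxyd2 and Akr1b3 belong to the list of osmotic and ion balance genes, of which 4 of 13 could be tested. Of these, 1 passed, 2 had an unadjusted p below 0.05 and the median log2 change was 2.30. Over all 953 genes, 1 passed (0.105%), 33 had an unadjusted p below 0.05 (3.46%) and the median was 0.08. The 2 genes are Fxyd2 and Akr1b3, picked after their values were seen, so the list's count and median are no separate support. The other 2 tested genes, Atp1b3 and Fxyd5, had log2 changes of 0.18 and -0.13.

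Several genes of antigen presentation on MHC class II were among those of small p. None of the 5 tested genes of that list passed, and 4 had an unadjusted p under 0.05, against 33 of all 953 genes (3.46%). The list's log2 changes ran from -0.80 to 5.28 with a median of 2.10, against a median of 0.08 over all 953 genes. H2-Aa had 248, 800, 382, 1511, 32.2 and 552 CPM, with a log2 change of 2.61 ± 0.66 (SE; edgeR adjusted p = 0.392). H2-Ab1 had 347, 595, 191, 1084, 80.5 and 571 CPM, with 2.10 ± 0.65. Cd74, the invariant chain, had 2180, 3118, 1339, 2923, 241 and 2490 CPM, with 1.76 ± 0.64. In all 3 genes the treated libraries lay above the untreated ones. H2-Eb1 had 1, 19, 0, 57, 0 and 54 UMIs.

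Class II transcripts were uneven among cells. A UMI of H2-Aa, H2-Ab1 or H2-Eb1 was found in 38 of 87 members, and at least 5 UMIs together in 16 (1, 6, 1, 4, 0 and 4). Cd74 was found in 55 members. The direction also depended on the gate: without the Lyz2 condition, the log2 changes were -0.56 for H2-Aa, -0.63 for H2-Ab1 and -0.41 for Cd74. The summed dendritic cell markers given above were higher in treated than in untreated members at 8 and 26 weeks and lower at 52 weeks, and their part in these values was not tested.

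**Figure D5:**
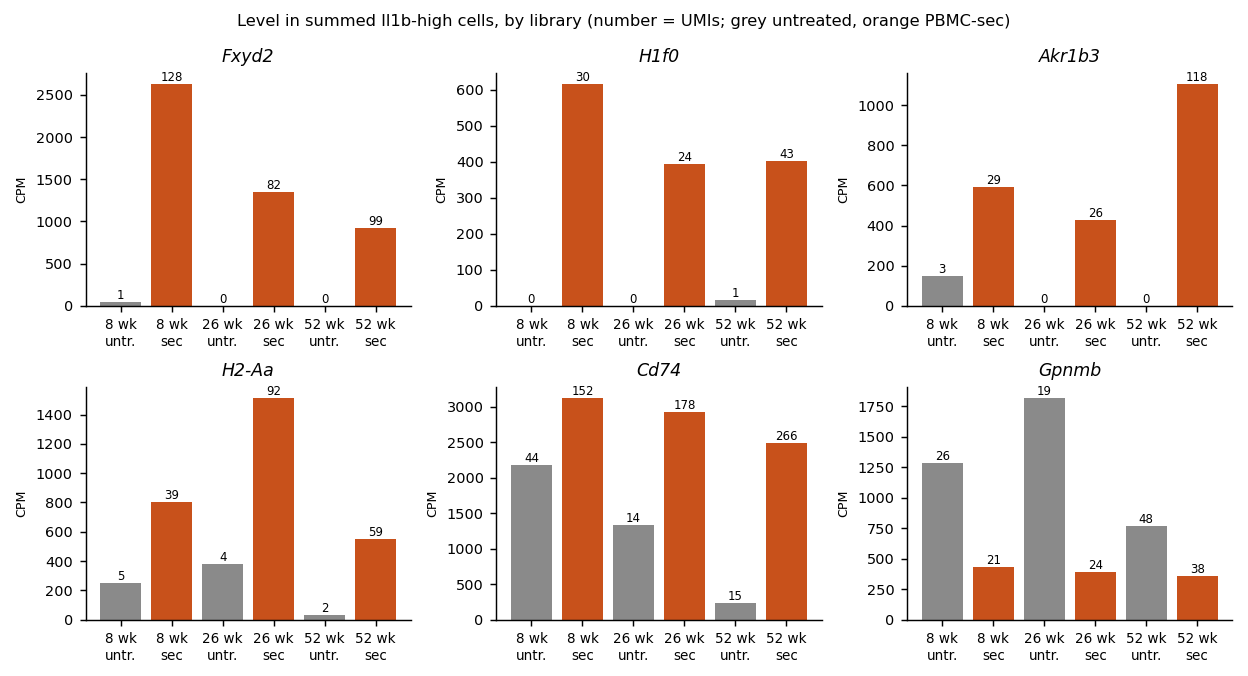
CPM of 6 genes in the summed Il1b-high cells of each library, with the UMIs above each bar, untreated libraries in grey and PBMC-sec libraries in orange; all axes start at 0. The bars of Fxyd2, H1f0, Akr1b3, H2-Aa and Cd74 are higher in every treated than in every untreated library, and those of Gpnmb are lower.

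The other genes with the smallest p among those not prone to free RNA did not pass either. S100a4, a calcium-binding protein of motile cells, had 49.5, 1436, 287, 755, 177 and 562 CPM (log2 change 2.47 ± 0.74, edgeR adjusted p = 0.738). The mitochondrial gene mt-Atp6, which overlaps mt-Atp8, had a log2 change of 1.60 ± 0.50. Lower in treated members were Gstm1, a glutathione transferase (545, 41.0, 95.6, 32.8, 692 and 103 CPM, log2 change -2.72 ± 0.65, edgeR adjusted p = 0.334), and Gpnmb, a lysosomal membrane glycoprotein (1288, 431, 1817, 394, 773 and 356 CPM, log2 change -1.48 ± 0.50, edgeR adjusted p = 0.926). Log2 changes were -2.59 for Bcap31, a chaperone of the endoplasmic reticulum, -1.89 for the protease gene Mmp19 and -1.50 for Bst2, the antiviral protein tetherin. Treated and untreated libraries did not overlap for Gpnmb and overlapped for Gstm1.

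The lists of the inflammatory response itself showed no gene past the threshold. Among 8 tested cytokines the median log2 change with treatment was 0.22, among 12 chemokines 0.44, among 13 NF-κB genes 0.16, and among 12 type I interferon genes -0.29. Ribosomal protein genes, 20 of 20 tested, had a median of 0.14. The median over all genes was 0.08. Cxcl5 and Cxcl10 were the 2 of 12 tested chemokines with an unadjusted p under 0.05, against 33 of all 953 genes (3.46%).

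Age was compared as 52 against 8 weeks in the same fit, where each age has 2 libraries that may share animals. None of 953 genes passed (0.0%) in edgeR's quasi-likelihood test, 19 reached an unadjusted p below 0.05 (1.99%), and 0 passed in DESeq2. Hspa5, the main chaperone of the endoplasmic reticulum, had 446, 349, 765, 361, 1239 and 1807 CPM (log2 change 2.03 ± 0.66, edgeR adjusted p = 0.998). Thbs1, a matrix glycoprotein, had 198, 1313, 956, 805, 2801 and 3351 CPM (2.30 ± 0.77). Both 52-week libraries exceeded the other 4 in these genes.

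The same held for Il6, with a log2 change of 1.80, and for Ccrl2, an atypical chemokine receptor, at 49.5, 226, 95.6, 82.1, 628 and 534 CPM. Rsad2, the antiviral enzyme viperin, had 396, 882, 956, 690, 982 and 3033 CPM, with a log2 change of 1.63. It was higher at 52 than at 8 weeks in untreated and in treated skin, and highest in the 52-week PBMC-sec library. Log2 changes were 2.14 for Resf1 and 1.60 for Slc15a3, a lysosomal peptide transporter. They were -1.54 for Uqcrb of respiratory complex III, -1.59 for Ifitm2 and -1.30 for Crip1. The edgeR adjusted p was 0.998 for all 10 genes.

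No list held a gene that passed with age. Among 7 tested genes of the unfolded protein response the median log2 change with age was 1.04, with 1 unadjusted p under 0.05, against 0.04 over all genes. C1qa, C1qb and C1qc had log2 changes of -1.60, -2.50 and -1.66, each with an unadjusted p under 0.05 and an edgeR adjusted p of 0.998. Over all 953 genes, 19 had an unadjusted p under 0.05 (1.99%). C1qb had 2080, 656, 0, 115, 145 and 309 CPM, where the 0 stands for the 2 cells of 26-week untreated skin. The 8-week untreated value comes from 4 members, 3 of which carried at least 5 C1q UMIs.

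Whether members and C1q-high cells differed in their treatment change was tested with the library as a block. None of 793 genes passed (0.0%) in edgeR's quasi-likelihood test, 28 reached an unadjusted p below 0.05 (3.53%), and 1 gene passed in DESeq2 (0.126%), Gpnmb (DESeq2 adjusted p = 0.0382). Gpnmb had 0, 3459, 0, 3383, 1322 and 2218 CPM in C1q-high cells, so it ran higher after treatment there and lower in members, and the difference of the log2 changes was -5.40 ± 1.50 (edgeR adjusted p = 0.432). Atp6v0d2, a subunit of the lysosomal proton pump, differed by -4.53.

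The other 8 genes named for this test had positive differences, and none passed. The log2 change in members minus that in C1q-high cells was 3.36 for Ccl2, 2.55 for Ccl7, 6.61 for Il6, 2.96 for Isg15, 3.49 for Rsad2, 2.86 for Ifi27l2a, 4.40 for Gbp5 and 2.53 for Id2. Ccl2 had 5765, 0, 11770, 211, 973 and 1943 CPM in C1q-high cells. The edgeR adjusted p was 0.971 to 0.999 in these 8 genes, and 4 of the 6 C1q-high sums held 5 cells or fewer. Some lists held differences both ways, from -1.30 to 6.61 among 6 tested cytokines and from -0.99 to 1.45 among 10 NF-κB genes. For 4 cytokine and chemokine receptors the median was -1.07. Other lists were positive throughout, among them 10 type I interferon genes (0.08 to 4.19) and 10 immediate early genes (0.62 to 3.44). Among 12 chemokines the median was 1.59 and 5 had an unadjusted edgeR p under 0.05. Over all 793 genes the median was 0.31 and 28 had such a p (3.53%).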

How the data were processed

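The deposited matrices hold raw UMI counts per gene and barcode, not normalized, written by Cell Ranger 5.0.1 per the file headers and mapped to mm10 (GRCm38) per the submitters' processing notes. The other deposited files list barcodes and 32285 genes. Libraries were made with the Chromium 3′ kit version 3.1 per the labels. Cells of 1 library are not replicates. Members and gene lists were chosen with earlier results of these data known, and 4 list genes were not matched. Raw counts of members were summed per library. edgeR 4.0.16 (TMM, filterByExpr, quasi-likelihood test; R 4.3.3) tested 953 genes with 2 residual degrees of freedom, leaving out the 10 gate genes from the adjustment at 0.05. DESeq2 1.42.0 was an alternative. SE is the log2 change divided by the root of F. Named genes were Tnf and the gate genes, the 10 genes of smallest p not prone to free RNA where under 6 passed, and the 4 highest of each list. A gene counted as prone where non-members exceeded 5 times the member CPM in any library. On simulated counts with 200 changed genes, the treatment test recovered 1.19% of 2-fold (790 genes tested), 29.7% of 4-fold (721) and 83.1% of 8-fold changes (709). Doublets were kept and, as alternatives, removed at 0.8% per 1000 barcodes by Scrublet score (scanpy 1.11.5). Other alternatives changed the gate, thinned cells to 1000 UMIs, used RLE size factors or no low-count filter, and left out cells or ages. A count over part of the phagocyte markers is not reported here.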

Additional observations from a re-analysis of the deposited data

Results flagged for a closer look

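In the measures below the treated and untreated libraries of an age differed in opposite directions at different ages. Each rests on 1 library per condition, so the difference between ages was not tested.

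The share of cells in the gate without its Lyz2 condition had a log2 ratio of PBMC-sec over untreated skin of -0.51 at 52 weeks, against 2.08 at 8 and 0.75 at 26 weeks. Tnf in members had a ratio of treated to untreated CPM of 0.1505 at 26 weeks (exact 95% interval for counting error 0.110 to 0.206), against 2.55 at 8 and 3.31 at 52 weeks, and the 26-week untreated value comes from 2 cells.

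The remaining measures are summed marker lists within members. Several rest on single cells, so each was recomputed without the member of most list UMIs in every library, an alternative chosen after seeing the data. Resident macrophage markers had ratios of 0.615, 0.2855 and 2.64 at 8, 26 and 52 weeks, and of 1.04, 3.25 and 5.16 without those members. The 8-week ratio was then close to level and the 26-week direction turned. In the untreated 26-week library 68 of the 71 resident macrophage UMIs lay in 1 of its 2 cells, so the ratio of 3.25 rests on very few UMIs of the other cell. Neutrophil markers had ratios of 3.93, 5.15 and 0.1202, and the 52-week value rests on S100a8 and S100a9, which had 100 and 89 UMIs in untreated against 15 and 6 in treated members. Of these, 134 untreated and 17 treated UMIs lay in 1 cell each. Without the highest members the 52-week ratio was 0.204, and the untreated libraries of 8 and 26 weeks were at 0. Keratinocyte markers had ratios of 4.84, 16.9 and 0.06191, and of 4.82, 12.2 and 0.184 without the highest members. In the untreated 26-week library 5 of the 7 keratinocyte UMIs lay in 1 cell, so the ratio of 12.2 also rests on very few UMIs. Fibroblast markers had ratios of 2.07, 0.07927 and 0.268, and 12 of the 13 fibroblast UMIs of the untreated 26-week library lay in 1 of its 2 cells. At 26 weeks too few UMIs were left for a ratio without the highest members, and at 8 and 52 weeks it was 1.64 and 0.285. In the untreated 26-week library 1 cell held 40 UMIs of Mmp3, a protease gene that fibroblasts express.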

How the results depend on the processing

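The share of members was higher after PBMC-sec on average under every alternative that gave a value, with mean log2 ratios from 0.35 (thinned, no Lyz2 condition) to 3.08 (without the 52-week pair), 1.55 and 1.81 without the 8-week and 26-week pairs, and p no lower than 0.25. Thinning with the Lyz2 condition left a library with 0 members and gave no value. The count of genes changed with PBMC-sec was 0 with gate floors of 3 UMIs, with the highest Scrublet scores removed, with neutrophil or mast cell UMIs removed, and without the Lyz2 condition (edgeR, 25 to 82 genes at an unadjusted p under 0.05), and 0 to 0 in the 3 leave-one-out fits (13 to 68). It was 2 with DESeq2, 3 after thinning (Fxyd2, Akr1b3, Cxcl5) and 34 of 10284 with no low-count filter. The count for age was 1 after thinning (Hspa5, log2 change 3.16, edgeR adjusted p = 0.0216) and 1 with no filter (Slpi). The count for the difference from C1q-high cells was 1 without the Lyz2 condition (Calm4), 1 with DESeq2, and 0 to 7 in the leave-one-out fits, with 7 of 347 when the 52-week pair was left out. Without the Lyz2 condition the treatment changes of H2-Aa (-0.56), H2-Ab1 (-0.63) and Cd74 (-0.41) reversed. For all of these the cause was not tested. Of the single-gene values under alternatives, 444 kept direction and side of the threshold, 8 fell below it, 5 passed it and 3 reversed. The Lyz2 and keratin alternatives and the thinned gate without Lyz2 were chosen after seeing the data. Leaving out the libraries with fewer than 10 members left no residual degrees of freedom for treatment and age, and gave 0 of 1989 genes for the difference from C1q-high cells (edgeR, 68 at an unadjusted p under 0.05). The age test gave no value without the 8-week or 52-week pair. No paired analysis was possible because each condition has 1 library and the replicate numbers only name it; the treatment fit already holds age as a factor. With 2 to 26 cells per library, changes under 4-fold were rarely recoverable.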

Other observations

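All 17 genes of the NRF2 antioxidant and iron list were detected in the members. Fth1, the ferritin heavy chain that stores iron, was found in 87 of 87 members at 80340, 63260, 92740, 50920, 46480 and 65630 CPM, and Ftl1, the light chain, in 87 members at 10330 to 21260 CPM. Hmox1, which breaks down heme, was found in 69 members at 1139 to 3442 CPM. Slc7a11, the cystine importer, was found in 51 members at 495, 185, 287, 328, 676 and 665 CPM, and C1q-high cells had at most 173 CPM. Median Slc7a11 over the libraries was 411.9 CPM in members, 372.5 CPM in Arg1-gated cells and 616.8 CPM in the same gate with Lyz2 at 0. None of the 13 tested genes of the NRF2 list passed with treatment, and their median log2 change was 0.17.

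Among protease inhibitors, Slpi and Serpinb2 differed widely between libraries. Slpi, the secretory leukocyte protease inhibitor, had 149, 2461, 1052, 4056, 11430 and 5879 CPM in 57 members, so the highest library had 76.9 times the lowest. C1q-high cells had at most 52.8 CPM of Slpi. Its median over the libraries was 3259 CPM in members, 2808 CPM in Arg1-gated cells and 2489 CPM in the same gate with Lyz2 at 0. Serpinb2, an inhibitor of plasminogen activators, was found in 68 members at 248, 2338, 191, 2562, 2366 and 2958 CPM. Mmp13, a collagenase, had 543 of its UMIs in the 52-week PBMC-sec members, at 5083 CPM, against 624 to 2229 CPM in the other libraries. Mki67 or Top2a, genes of dividing cells, were detected in 14 of 87 members (2, 1, 0, 4, 1 and 6), and Mki67 had 0 to 6 UMIs per library.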
